A study of Rattus norvegicus with 372 samples.

Results

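Krt7, Krt8, Krt18, Krt19, Sox9, Spp1, Epcam, Cd24 and Afp were taken as markers of bile duct cells, of the keratin cytoskeleton and of fetal liver, and their RNA was followed in cultured rat hepatocytes as a readout of dedifferentiation. The 9 genes were chosen by name: a column of the whole-transcriptome (WT) table belonged to a gene when its name without the probe number was the gene's symbol, ignoring case, and reads of several probes of a gene were added. Of the 9 genes, 8 had a column among the 20946 genes of the WT table, and Cd24 is not analysed here. A mean of at least 10 reads per well was needed for a test, which 10191 genes reached, among them Krt8, Krt18, Sox9, Spp1, Epcam and Afp. Krt7 and Krt19 fell below it and are described by their reads. The smaller surrogate (ST) table held columns for 6 of the 9 genes, and Krt8, Krt18 and Spp1 passed the same filter there.

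The hepatocytes came from male Wistar rats and were kept between collagen layers, as a sandwich culture, in 96-well plates in William's medium E with insulin, dexamethasone and epidermal growth factor. Wells received 1 of 14 chemicals, each at a low and a high concentration, for 24 h in medium with 0.5% DMSO. Vehicle wells received 0.5% DMSO by itself, and further wells received culture medium alone. The whole experiment was run in 2 batches, each with hepatocytes of 1 rat, so the 3 wells of a treatment in a batch are technical replicates and p-values measure mainly the spread between wells. Batch 1 had 3 vehicle and 3 medium wells, and batch 2 had 6 of each. Each lysate was read by TempO-Seq, in which pairs of detector oligonucleotides are ligated on their target RNA and the ligated products are amplified and counted, once with the WT probes and once with the ST probes.

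Over 90 wells of batch 1 and 96 of batch 2, WT depth ran from 2289425 to 8975207 reads, with medians of 6210462 and 7220136. ST depth ran from 558190 to 2210264 reads. The wells held the RNA of hepatocytes, with the plasma proteins albumin (Alb) at 10820 to 14790 CPM and apolipoprotein A1 (Apoa1) at 10080 to 13060 CPM in the vehicle wells, where CPM are the reads of a gene scaled to a common library total. Of the markers that define bile duct cells, Krt7 had no read in any vehicle well and Cftr, a chloride channel, stayed at or below 0.173 CPM. In batch 1, the vehicle and medium wells and 16 treatments were on 1 plate and 12 treatments on another, so for those 12 plate and treatment cannot be told apart within that batch.

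Keratins 8 and 18 pair into the keratin filament of the normal adult hepatocyte, whereas keratins 7 and 19 mark the cells of the bile ducts. Sox9 is a transcription factor of bile duct cells and liver progenitors, Spp1 encodes osteopontin, a secreted phosphoprotein, and Epcam and Cd24 encode surface glycoproteins of biliary and progenitor cells. Afp, alpha-fetoprotein, is the main plasma protein of the fetal liver and is silenced after birth. Hepatocytes that lose their identity in culture or in injured liver are known to take up genes of these groups while their metabolic genes decline.

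The stretch of 250 bases before the annotated start is shown for Krt8 and Krt18, which moved most often, and for Afp, the fetal gene of the set. The sequences are from RefSeq on build GRCr8, in which 6 of the 9 genes were matched, and the deposited tables were made on another build, rn6. Capitals mark matches, on either strand, to a TATA box written as TATAAA, a GC box written as GGGCGG or an AP-1 site written as TGACTCA.
Krt8, chr7:135010340-135010589, minus strand: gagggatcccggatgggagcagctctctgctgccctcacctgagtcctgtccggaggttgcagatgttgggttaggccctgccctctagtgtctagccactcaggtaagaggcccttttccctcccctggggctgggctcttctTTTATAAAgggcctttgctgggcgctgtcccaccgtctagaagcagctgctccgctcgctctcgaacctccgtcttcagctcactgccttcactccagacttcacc
Krt18, chr7:135035918-135036167, plus strand: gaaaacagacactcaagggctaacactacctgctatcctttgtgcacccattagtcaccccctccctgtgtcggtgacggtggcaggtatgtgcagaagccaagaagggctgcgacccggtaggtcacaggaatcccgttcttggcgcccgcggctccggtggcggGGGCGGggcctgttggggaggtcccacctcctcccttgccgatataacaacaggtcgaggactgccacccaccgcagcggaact
Afp, chr14:17875646-17875895, minus strand: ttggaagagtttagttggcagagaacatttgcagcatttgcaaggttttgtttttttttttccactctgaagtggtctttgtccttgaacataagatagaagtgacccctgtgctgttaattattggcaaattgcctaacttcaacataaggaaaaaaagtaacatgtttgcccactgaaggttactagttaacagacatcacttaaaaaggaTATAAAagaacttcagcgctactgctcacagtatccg
The starts of Krt8 and Krt18 lie 25829 bases apart on chromosome 7 and the genes are read away from each other. Krt8 matched the TATA box on its own strand, 104 to 99 bases before the start, and on the opposite strand in an overlapping match, and Krt18 matched the GC box 84 to 79 bases before it. Afp matched the TATA box 37 to 32 bases before its start. Among all 33469 promoters of the same table and length, 12.9% held this TATA box, 30.5% the GC box and 4.05% the AP-1 site. These matches describe the letters of the windows only.

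Against the vehicle wells of their own batch, the 6 tested genes were lower far more often than higher. Over the 28 treatments there were 168 combinations of gene and treatment, of which 58 were lower and 9 higher at an adjusted p under 0.05, where among all genes 15.0% of combinations were lower and 15.2% higher. The median log2 fold change of the 168 was -0.27. At the 14 high concentrations 47 of 84 combinations were lower and 7 higher, beside 25.5% and 25.4% of all genes. At the 14 low ones 11 of 84 were lower and 2 higher, beside 4.5% and 4.9%. Of the 58 lower calls, 17 were of Krt8 and 15 of Krt18, and of the 11 at low concentrations 5 and 3. Both counts thus rest largely on the keratin pair. The other lower calls at low concentrations were 2 of Epcam and 1 of Spp1. All 67 calls had the same sign in both batches. In a fit of all wells with 1 group per batch and treatment, 33 of the lower and 6 of the higher ones passed in each batch. In 53 of the 67, every treated well lay outside the range of the vehicle wells of its batch.

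No treatment raised all 6 genes. Diclofenac at 400 µM, an anti-inflammatory drug, lowered all 6, beside 35.8% of all genes lower, and naproxen at 2000 µM lowered 5 and raised Sox9, beside 26.2% lower and 27.6% higher. Every one of the 14 high concentrations, which called 19.4% to 78.9% of all genes, called at least 1 of the 6 genes. The 8 low ones that called none of the 6 called 0.0196% to 1.62% of all genes. With scaling by library totals alone, the median of all genes moved by over 0.1 on the log2 scale in 10 treatments, from -0.41 with 10000 µM acetaminophen to 0.27 with 10000 µM valproic acid.

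**Figure D1:**
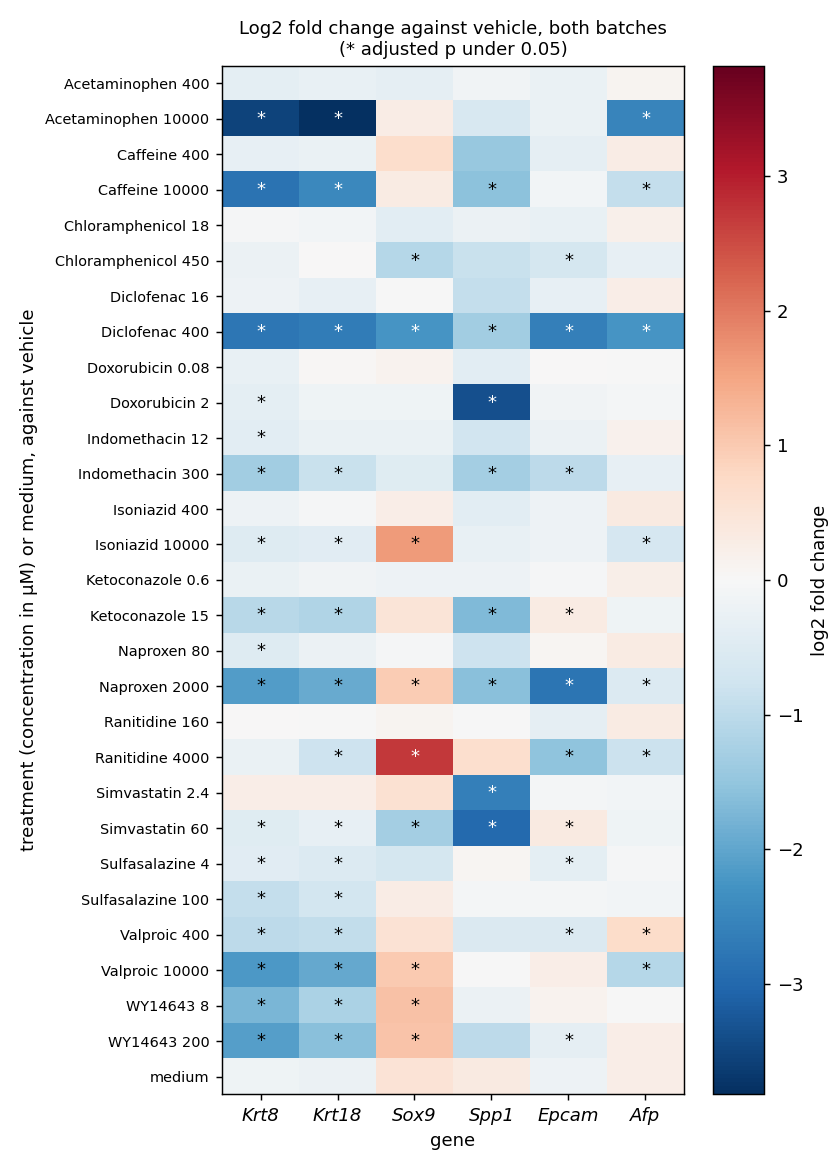
Log2 fold change against vehicle (colour) of the 6 tested genes (columns) in the 28 treatments and the medium wells (rows, concentration in µM), with an asterisk where the adjusted p was under 0.05. Krt8 and Krt18 are lower in most rows of high concentration, Sox9 holds most of the increases, and the row of 400 µM diclofenac is lower throughout.

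Krt8 was lower in 17 treatments and Krt18 in 15 of the 28, and neither was higher in any. Krt8 stood at 3841, 4034 and 4077 CPM in the vehicle wells of batch 1 and at 4945 to 6577, median 5900.2, in the 6 of batch 2. With 10000 µM acetaminophen it stood at 191, 195 and 198 CPM in batch 1 and 442, 451 and 490.3 in batch 2. All 6 treated wells lay below all vehicle wells, at a log2 fold change of -3.55 (SE 0.15, adjusted p = 1.77e-52). With 10000 µM caffeine Krt8 stood at 473, 524 and 525 CPM and at 696, 729 and 963 CPM in batches 1 and 2. With 400 µM diclofenac the wells read 588, 676 and 676 CPM and then 903, 920.5 and 1118 CPM. Both groups lay wholly below vehicle, with log2 fold changes of -2.82 (SE 0.14, adjusted p = 1.89e-42) and -2.76 (SE 0.14, adjusted p = 1.12e-41). With 10000 µM valproic acid, a histone deacetylase inhibitor, Krt8 read 1172, 1382 and 1504 CPM in batch 1 and 1111, 1113 and 1349 in batch 2, again without overlap, and the log2 fold change was -2.19 (SE 0.14, adjusted p = 1.72e-32).

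Krt18, the partner of Krt8, stood at 805, 816 and 883 CPM in the vehicle wells of batch 1 and at 934 to 1237, median 1149.8, in batch 2. With 10000 µM acetaminophen it read 28.8, 29.4 and 49.0 CPM in batch 1 and 36.5, 79.4 and 96.9 in batch 2, which lay below every vehicle well, at a log2 fold change of -3.82 (SE 0.15, adjusted p = 1.72e-56). With 400 µM diclofenac Krt18 read 102, 117 and 141 CPM, then 215, 227 and 246, and with 10000 µM caffeine 121, 128 and 145 CPM, then 184, 208 and 213. None of these 12 wells reached the vehicle range, and the log2 fold changes were -2.66 (SE 0.14, adjusted p = 2.08e-41) and -2.45 (SE 0.14, adjusted p = 5.33e-38). With 10000 µM valproic acid Krt18 read 274, 320.2 and 341 CPM, then 246, 301 and 317, at a log2 fold change of -1.95 (SE 0.14, adjusted p = 1.98e-29).

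The other lower values of the pair spread over drugs of several classes. WY14643, an agonist of the lipid-sensing receptor PPAR alpha, gave log2 fold changes of -1.73 at 8 µM and -2.10 at 200 µM for Krt8, and of -1.20 and -1.59 for Krt18. Naproxen at 2000 µM gave -2.14 for Krt8 and -1.92 for Krt18, ketoconazole at 15 µM -1.05 and -1.14, indomethacin at 300 µM -1.33 and -0.86, valproic acid at 400 µM -1.004 and -0.94, and sulfasalazine at 100 µM -0.92 and -0.69. Ranitidine at 4000 µM gave -0.79 for Krt18 (adjusted p = 2.02e-08), whereas Krt8 moved in opposite directions in the batches. The remaining lower calls, with isoniazid, simvastatin, naproxen at 80 µM, sulfasalazine at 4 µM, indomethacin at 12 µM and doxorubicin at 2 µM, lay between -0.33 and -0.51, and all 9 were lost when the wells of each rat were added (adjusted p = 0.118 to 0.669). Between the plates of batch 2, vehicle differed by 0.26 for Krt18 (SE 0.08, adjusted p = 0.0395), beside 12.2% of all genes called between those plates. With each treatment of batch 2 set against the vehicle wells of its own plate, 54 of the 168 combinations were lower and 9 higher. The shares of all genes called in those fits are not given here, so these counts are not compared with all genes.

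In the same wells the ST probes gave nearly the same values for the keratins. Krt8 was called lower in 16 of its 17 WT treatments in ST too, with log2 fold changes at most 0.247 apart, and 10000 µM acetaminophen gave -3.52. Over the 3 genes tested in both assays, ST called 35 lower and 1 higher, beside 17.6% and 17.1% of all ST combinations. The higher value was Krt8 with 2.4 µM simvastatin, at 0.41 (adjusted p = 0.0337), where WT gave 0.25 and no call. Krt18 was called in both assays in 14 treatments, and its log2 fold changes lay at most 0.392 apart among the WT calls. The 2 assays share lysates and, for these genes, probes, so they check the library step and not the cultures.

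**Figure D2:**
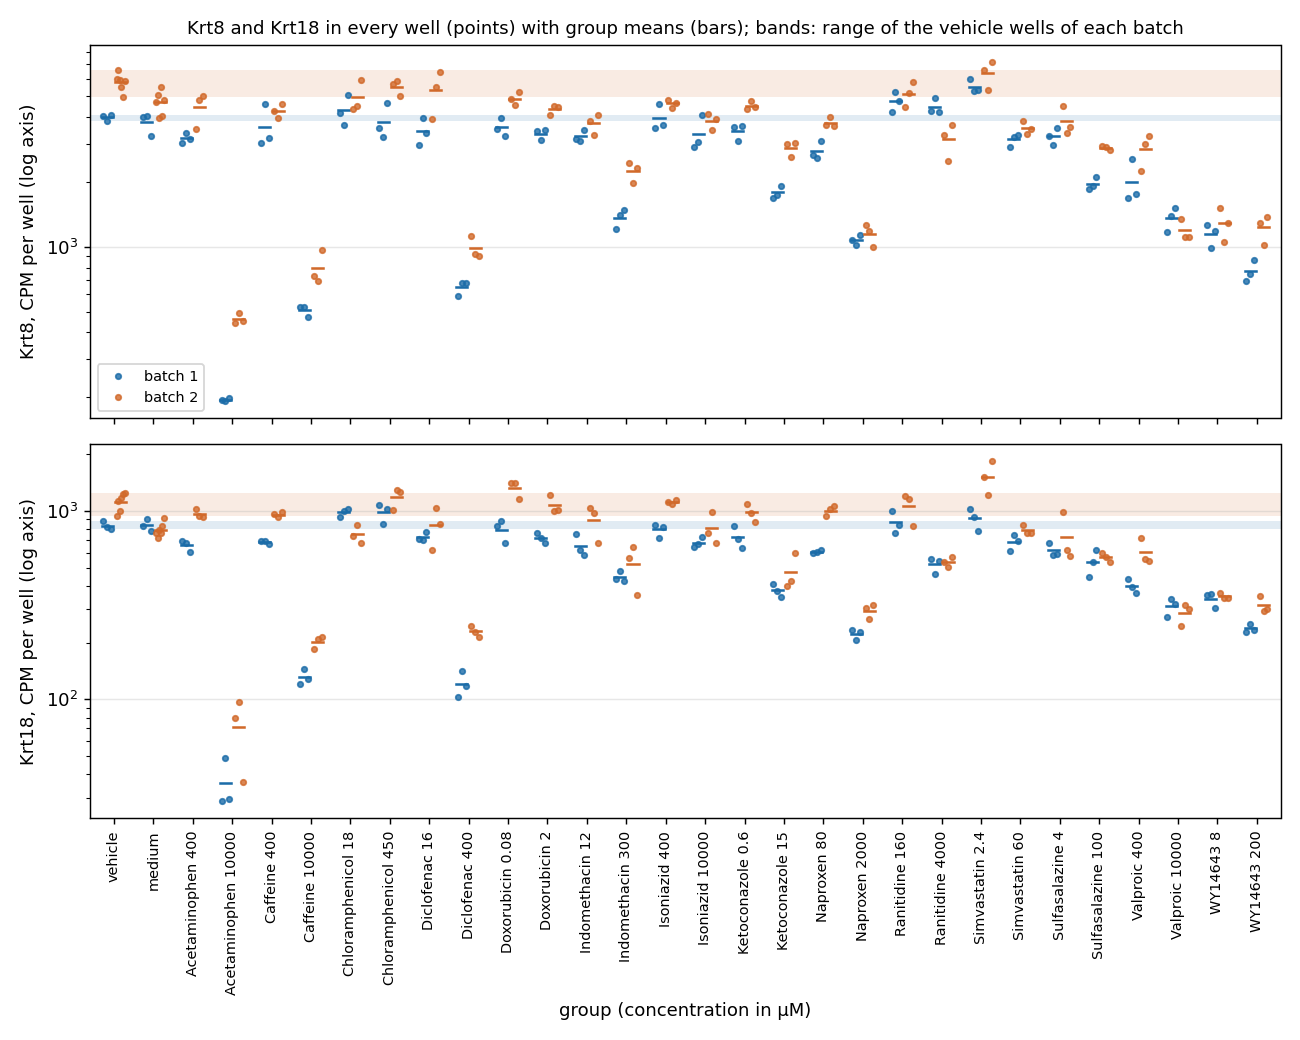
CPM of Krt8 (top) and Krt18 (bottom) in every WT well on log axes, by treatment with its concentration in µM, with batch 1 in blue and batch 2 in orange, bars at group means and bands over the range of the vehicle wells of each batch. The wells of 10000 µM acetaminophen, 10000 µM caffeine and 400 µM diclofenac lie farthest below both bands, and for Krt8 those of 10000 µM acetaminophen stay between 191 and 490.3 CPM.

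Sox9 was the gene of the set that rose most often, in 6 treatments, and it fell in 3. Its vehicle wells stood at 2.78, 3.39 and 5.28 CPM in batch 1 and at 1.73 to 4.25, median 2.74, in batch 2. With 4000 µM ranitidine, a blocker of the histamine H2 receptor, Sox9 read 30.5, 33.1 and 49.4 CPM, then 7.80, 8.37 and 13.1. All 6 wells lay above all vehicle wells, and the log2 fold change was 2.71 (SE 0.24, adjusted p = 1.87e-20), a 6.57-fold increase. With 10000 µM isoniazid it read 10.8, 13.6 and 19.2 CPM, then 6.79, 6.94 and 9.63, again all above vehicle, at 1.61 (SE 0.25, adjusted p = 3.59e-08).

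Sox9 also rose with both concentrations of WY14643. At 8 µM the wells read 5.39, 5.67 and 6.66 CPM, then 3.73, 6.66 and 7.38, and 5.37, 5.87 and 7.69, then 4.69, 6.23 and 6.46, at 200 µM. Of these 12 wells, 1 at 8 µM overlapped the vehicle range, and the log2 fold changes were 1.12 (SE 0.27, adjusted p = 0.000149) and 1.09 (SE 0.26, adjusted p = 0.000182). Valproic acid at 10000 µM gave 1.01 (adjusted p = 0.000319) and naproxen at 2000 µM 0.98 (adjusted p = 0.000757). In those 6 treatments Krt18 was lower in 6 and Krt8 in 5, where 17.3% to 33.9% of all genes were lower. Krt8 and Krt18 were each lower at 12 of the 14 high concentrations, so this is not read as a link to Sox9.

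The lowest Sox9 values came with 400 µM diclofenac, at 0.515, 0.524 and 0.806 CPM, then 0.413, 0.960 and 1.25. With 60 µM simvastatin, an inhibitor of cholesterol synthesis, they were 1.23, 1.84 and 2.02, then 0.592, 0.863 and 1.47, and with 450 µM chloramphenicol 1.89, 2.55 and 2.92, then 0.830, 0.973 and 1.65. Wells of the first 2 groups all lay below vehicle, and 5 of the 6 chloramphenicol wells did. The log2 fold changes were -2.27 (SE 0.37, adjusted p = 2.48e-08), -1.29 (SE 0.33, adjusted p = 0.00138) and -1.10 (SE 0.32, adjusted p = 0.00438), and the simvastatin and chloramphenicol calls were lost when the wells of each rat were added to 1 count.

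Beside the rise of Sox9 with 4000 µM ranitidine, 19 of 25 tested genes of the mature hepatocyte list were lower and 2 higher, where 33.9% and 32.3% of all genes were. Cps1, the first enzyme of the urea cycle, read 7.33 to 16.4 CPM there against 233.5 to 380.0 in the vehicle wells. Of the other treatments that raised Sox9, 10000 µM isoniazid had 17 of the 25 lower and 2 higher, 10000 µM valproic acid 19 and 4, and 2000 µM naproxen 12 and 7. The list did not move one way with Sox9. With WY14643, where Sox9 also rose, 11 of the 25 were higher and 4 lower at 8 µM and 16 higher and 2 lower at 200 µM, and with 400 µM diclofenac, where Sox9 fell by 2.27, 20 were lower and 3 higher. Whether abundant hepatocyte RNA has a part in the share of Sox9 reads was not tested.

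**Figure D3:**
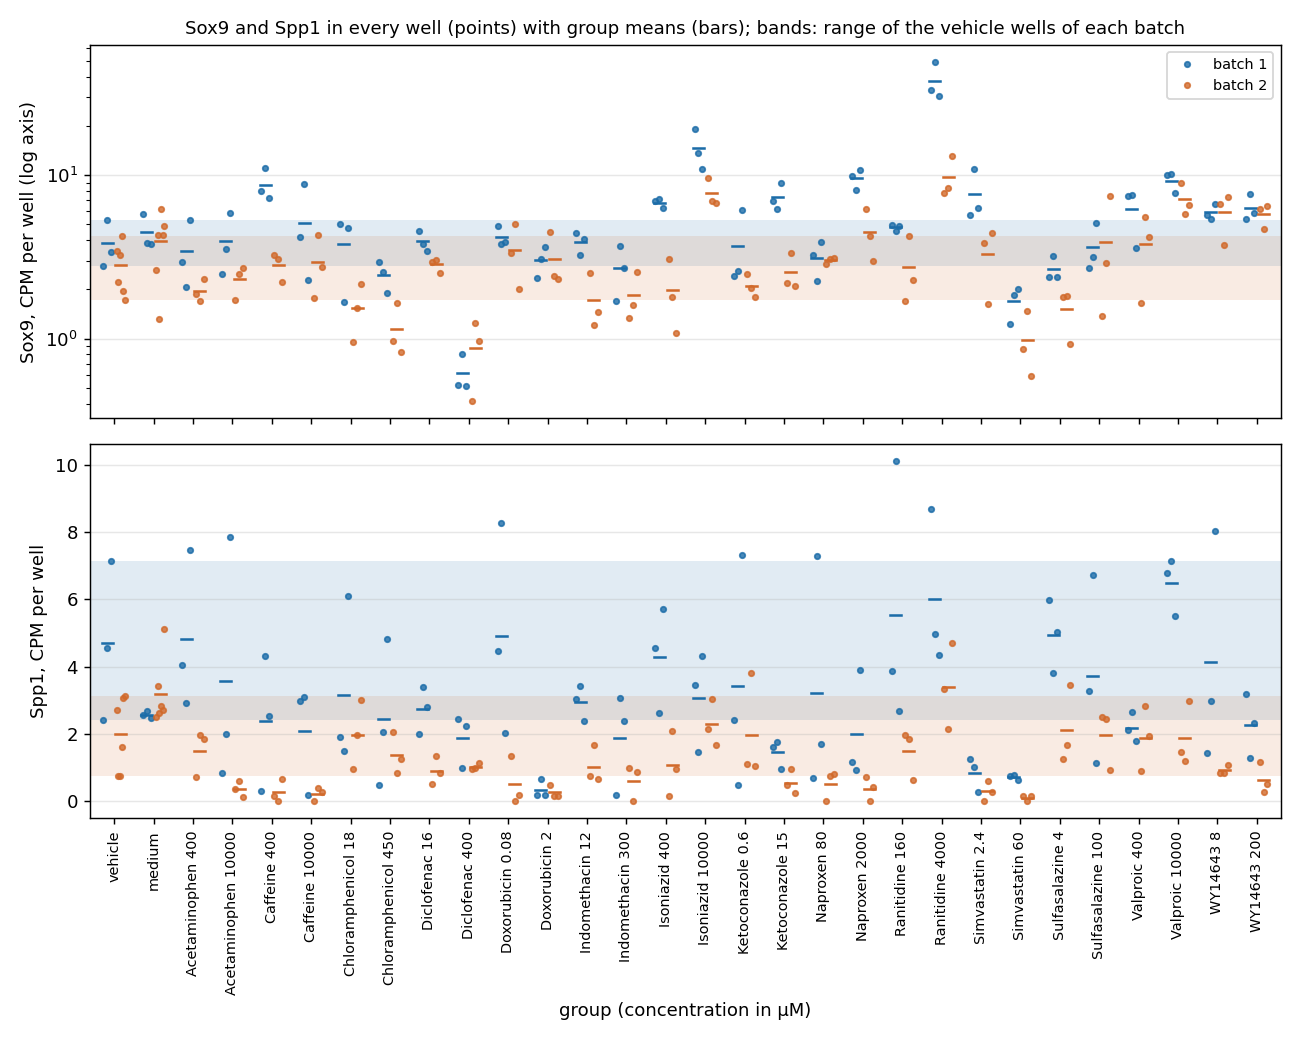
CPM of Sox9 (top, log axis) and Spp1 (bottom, linear axis) in every WT well, by treatment with its concentration in µM, with batches, means and vehicle bands drawn in blue for batch 1 and orange for batch 2. For Sox9 the wells of 4000 µM ranitidine stand highest, at 7.80 to 49.4 CPM. For Spp1 the bands are wide and the wells of 2 µM doxorubicin lie near 0.

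Spp1 was lower in 8 treatments and higher in none, at counts low enough that its standard errors were between 0.51 and 0.68 on the log2 scale. The vehicle wells read 2.42, 4.55 and 7.14 CPM in batch 1 and 0.738 to 3.11, median 2.16, in batch 2. With 2 µM doxorubicin, a DNA intercalator, Spp1 read 0.165, 0.167 and 0.667 CPM, then 0.154, 0.161 and 0.483, all below vehicle, at -3.36 (SE 0.68, adjusted p = 3.78e-05). With 60 µM simvastatin the wells read 0.623, 0.740 and 0.766 CPM, then 0, 0.144 and 0.148, also all below vehicle, at -2.97 (SE 0.63, adjusted p = 8.68e-05). At 2.4 µM they read 0.275, 1.00 and 1.25 CPM, then 0, 0.260 and 0.592, at -2.60 (SE 0.60, adjusted p = 0.00286). ST gave -3.04 (adjusted p = 0.000932) with doxorubicin and -2.64 (adjusted p = 0.00278) with 60 µM simvastatin.

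The other lower values of Spp1 were smaller. With 15 µM ketoconazole the wells read 0.956, 1.61 and 1.76 CPM in batch 1 and 0.235, 0.463 and 0.948 in batch 2, 5 of 6 below vehicle, at -1.69 (adjusted p = 0.00504). Without the third replicate of each group the ketoconazole value was -1.37 (adjusted p = 0.0617) and that of 2.4 µM simvastatin -2.19 (adjusted p = 0.152), and the latter was -2.59 (adjusted p = 0.132) with the wells of each rat added. Naproxen at 2000 µM, caffeine at 10000 µM, diclofenac at 400 µM and indomethacin at 300 µM gave -1.59, -1.58, -1.31 and -1.29, each with wells inside the vehicle range, and the diclofenac and indomethacin calls were lost with the wells of each rat added (adjusted p = 0.0628 and 0.0894). ST called 3 of the 8, doxorubicin, 60 µM simvastatin and caffeine, the last at -1.99 (adjusted p = 0.00717), and the caffeine call held with the wells of each rat added (adjusted p = 0.0287). ST did not call 2.4 µM simvastatin (adjusted p = 0.0576), and with diclofenac it gave 0.04 (adjusted p = 0.943).

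Beside the fall of Spp1 with doxorubicin, markers of other liver cells fell as well. The 7 measured stellate cell markers summed to 11.2 to 18.2 CPM in batch 1 and 3.38 to 4.66 in batch 2, against 110.9 to 169.7 and 35.0 to 51.6 in the vehicle wells, and both tested ones, Col1a2 (-3.48) and Col3a1 (-3.34), were lower. The 8 macrophage markers summed to 30.6 to 33.0 and 51.5 to 55.3 CPM, against 61.2 to 83.2 and 61.1 to 77.4, and 3 of 5 tested were lower, with Cd163 at -5.81 and Clec4f at -4.56, where 10.3% of all genes were lower and 9.07% higher. In bulk wells fewer cells of a type and less RNA per cell cannot be told apart. With 60 µM simvastatin the same sums were 148.2 to 176.8 and 53.7 to 54.8 CPM for stellate and 86.8 to 91.8 and 83.6 to 94.0 for macrophage markers, not below vehicle. With 2.4 µM simvastatin none of the 2 stellate and 2 of the 5 macrophage markers tested were lower, the latter with a median of -0.51, where 1.28% of all genes were lower. Macrophage markers were lower also in the other treatments that lowered Spp1, 3 of 5 each with caffeine, diclofenac, ketoconazole and indomethacin and 2 of 5 with naproxen, where 26.2% to 35.8% of all genes were lower, and 1 or 2 of the 5 were higher. Both stellate markers were lower in these treatments except with ketoconazole, where neither was called. The part of these cells in the lower Spp1 was not tested.

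Epcam was lower in 8 treatments and higher in 2. Its vehicle wells read 27.3, 33.4 and 35.5 CPM in batch 1 and 36.5 to 44.3, median 41.1, in batch 2. With 2000 µM naproxen it read 3.36, 4.38 and 5.30 CPM, then 5.48, 5.82 and 6.73, and with 400 µM diclofenac 3.84, 6.35 and 8.71, then 5.51, 7.04 and 7.63. None of these wells came near the vehicle range, and the log2 fold changes were -2.79 (SE 0.17, adjusted p = 2.45e-35) and -2.60 (SE 0.16, adjusted p = 1.07e-33). With 4000 µM ranitidine Epcam read 7.10, 8.70 and 15.3 CPM, then 11.9, 12.3 and 15.0, and with 300 µM indomethacin 13.3, 13.3 and 16.2, then 15.4, 16.8 and 23.1. These wells too lay below all vehicle wells, at -1.54 (SE 0.15, adjusted p = 1.86e-18) and -0.99 (SE 0.14, adjusted p = 1.13e-09). Naproxen, diclofenac and indomethacin are inhibitors of the prostaglandin-forming cyclooxygenases, and ranitidine is not among them. A part of that inhibition in the lower Epcam was not tested. Smaller decreases came with 450 µM chloramphenicol (-0.66), 400 µM valproic acid (-0.55), 4 µM sulfasalazine (-0.37) and 200 µM WY14643 (-0.33), and the last 2 were lost with the wells of each rat added (adjusted p = 0.306 and 0.147).

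The 2 increases of Epcam were small. With 60 µM simvastatin it read 30.8, 31.3 and 34.6 CPM, inside the vehicle range, in batch 1 and 53.0, 55.3 and 62.0, above it, in batch 2, at 0.35 (SE 0.13, adjusted p = 0.0417). With 15 µM ketoconazole it read 30.01, 42.0 and 48.5 CPM, then 38.9, 44.5 and 51.5, 4 of 6 above vehicle, at 0.31 (SE 0.13, adjusted p = 0.0443). Neither call held with library totals alone (adjusted p = 0.146 and 0.13), with the wells of each rat added, or without the second vehicle well of batch 1 (0.0701 and 0.0748) or the third or sixth of batch 2, and the ketoconazole call was lost also without the second of batch 2 (0.0508). The simvastatin call was lost without any 1 replicate of all treatments, the ketoconazole call without the second or the third.

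Afp was lower in 7 treatments, all at the high concentration, and higher in 1. The vehicle wells read 8.11, 8.56 and 9.29 CPM in batch 1 and 10.5 to 12.3, median 11.5, in batch 2. With 10000 µM acetaminophen Afp read 1.21, 1.23 and 2.198 CPM, then 1.01, 1.07 and 1.72, and with 400 µM diclofenac 1.57, 2.42 and 3.09, then 1.53, 2.24 and 3.30. All 12 wells were below vehicle, at -2.51 (SE 0.21, adjusted p = 5.09e-24) and -2.24 (SE 0.19, adjusted p = 1.83e-23). With 10000 µM caffeine Afp read 5.40, 5.52 and 5.78 CPM, then 3.43, 4.95 and 5.25, at -0.90 (adjusted p = 6.34e-07). Ranitidine, isoniazid and naproxen at their high concentrations gave -0.83, -0.64 and -0.53, and the naproxen call was lost with the wells of each rat added (adjusted p = 0.0551).

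Valproic acid moved Afp in both directions. At 400 µM the wells read 13.5, 14.1 and 16.2 CPM in batch 1 and 16.2, 16.4 and 20.2 in batch 2, all above vehicle, at 0.69 (SE 0.15, adjusted p = 4.79e-05). At 10000 µM they read 5.24, 5.27 and 5.69, then 4.98, 5.89 and 7.88, all below vehicle, at -1.08 (SE 0.16, adjusted p = 1.88e-09). The difference of high minus low was -1.77 (SE 0.17, adjusted p = 1.57e-18).

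**Figure D4:**
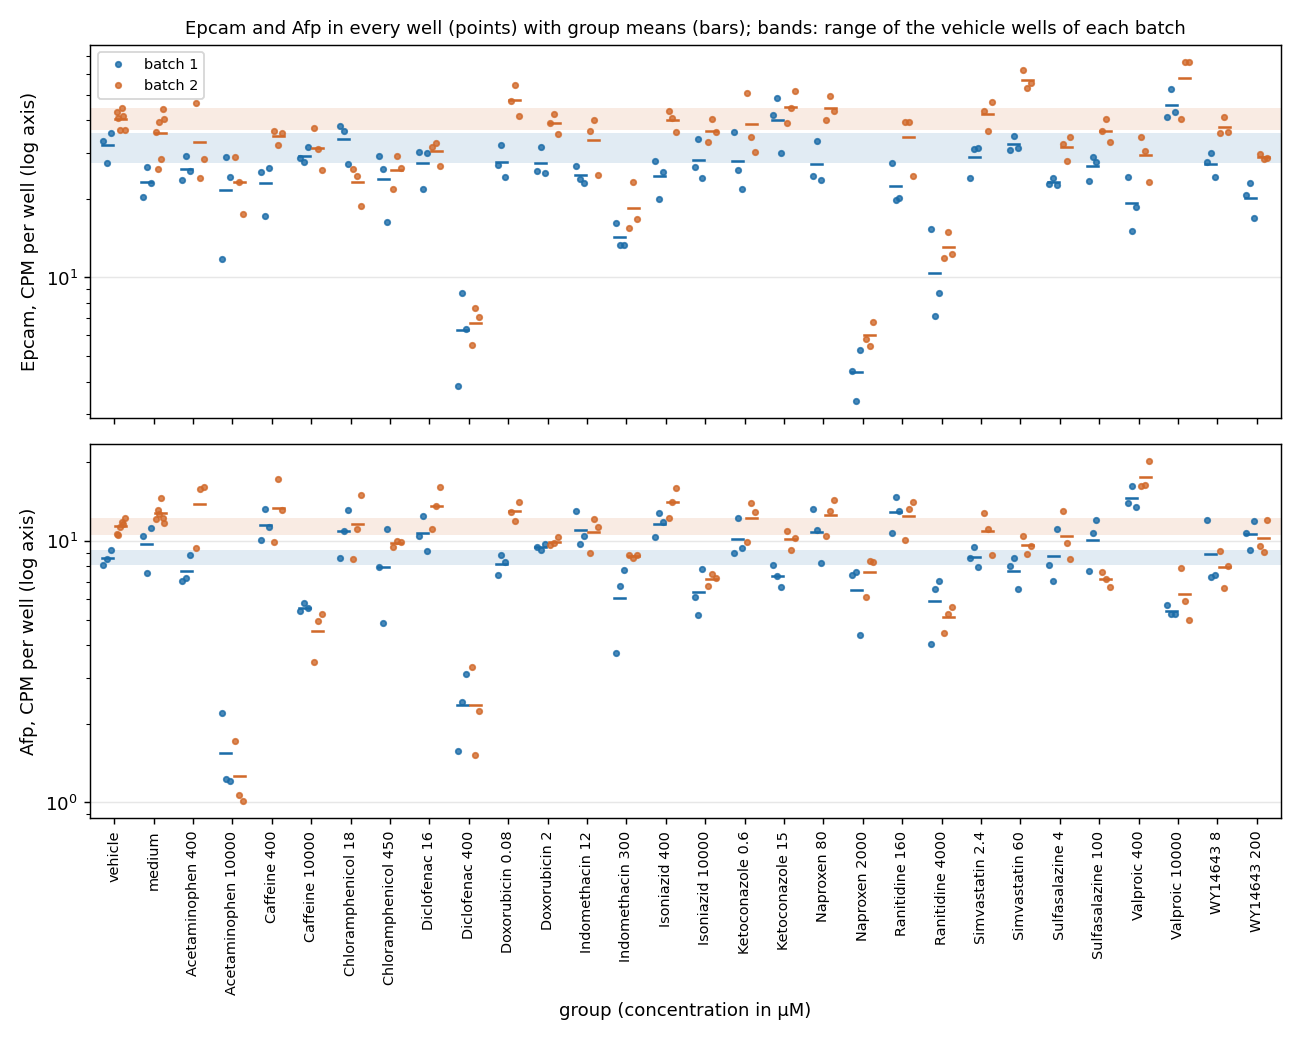
CPM of Epcam (top) and Afp (bottom) in every WT well, by treatment with its concentration in µM, with batch 1 in blue, batch 2 in orange, bars at group means and bands over the vehicle wells of each batch. Epcam is lowest with 2000 µM naproxen and 400 µM diclofenac, at 3.36 to 8.71 CPM, and Afp stands above both bands with 400 µM valproic acid and below both with 10000 µM.

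Krt7 and Krt19, the keratins that define bile duct cells, were barely detected. The 2 WT probes of Krt7 gave reads in 4 wells and never more than 2, and a count of 0 allows up to 0.334 to 1.31 CPM, depending on the well. A different probe in ST gave Krt7 up to 18 reads, with 106 wells at 0. Krt19 had a mean of 1.64 WT reads, at most 12, and none in 84 wells. Their levels cannot be set against those of Krt8 or Krt18, since probes differ in capture.

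Of the 2, Krt19 differed between medium alone and vehicle in the wells of batch 2. The vehicle wells held 0 to 3 reads in batch 1 and 1 to 3 in batch 2, and the medium wells 3 to 8 and 2 to 12. In batch 2 all 6 medium wells lay above all vehicle wells, at 0.592 to 1.90 CPM against 0.148 to 0.518, and in batch 1 the groups overlapped. Fitted without the filter on low counts, Krt19 was called higher in medium (adjusted p = 0.0131), where 5.1% of 20697 genes were called. The same fit called Krt19 lower with 400 µM diclofenac (adjusted p = 0.002), 10000 µM caffeine (0.00362), 300 µM indomethacin (0.00473), 2000 µM naproxen (0.0286) and 200 µM WY14643 (0.0317), where 26.9% to 41.3% of genes were called. No fold is given for these calls or for medium, since no vehicle well held more than 3 reads. In ST the Krt19 means were 3.62 and 5.98 CPM in medium and 1.57 and 1.65 in vehicle. Krt19 had no read in any of the 6 WT wells with 10000 µM caffeine, 400 µM diclofenac or 300 µM indomethacin.

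The medium wells asked whether the vehicle itself moved these genes. At an adjusted p under 0.05, edgeR called 0 of the 6 tested genes between medium and vehicle, and DESeq2 0 as well, where 12.6% of all genes were called by edgeR. The log2 fold changes of medium minus vehicle were -0.15 for Krt8, -0.23 for Krt18, 0.54 for Sox9, 0.33 for Spp1, -0.19 for Epcam and 0.24 for Afp. At an unadjusted p under 0.05, 2 of the 6 passed, Sox9 and Krt18. Krt18 read 784, 833 and 907 CPM in medium in batch 1 and 717 to 913, median 779, in batch 2. All 6 medium wells of batch 2 lay below the vehicle wells of that batch, at -0.41 (adjusted p = 0.005), and those of batch 1 overlapped them. ST called Krt18 lower over both batches, at -0.67 (adjusted p = 0.000133).

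High and low concentrations of a chemical were also compared with each other, which leaves out the vehicle wells. Over 84 combinations of gene and chemical, 36 were lower and 7 higher at the high concentration, beside 20.7% and 20.1% among all genes. Krt18 was lower with 10 of 14 chemicals, Krt8 and Afp with 9 each, Epcam with 4, and Sox9 and Spp1 with 2. The increases were those of Sox9 with ranitidine (2.60), isoniazid (1.35), naproxen (1.03) and sulfasalazine (0.97), and of Epcam with valproic acid (0.80), simvastatin (0.41) and ketoconazole (0.37). Spp1 with doxorubicin fell by 2.95 on the log2 scale (SE 0.71, adjusted p = 0.00141), from means of 4.92 and 0.498 CPM at 0.08 µM to 0.333 and 0.266 CPM at 2 µM. WY14643, whose concentrations both lowered the keratins, gave no call between them for any of the 6 genes.

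The 2 batches gave different fold changes in 7 of the 168 combinations, beside 2.44% of all genes. Each batch was 1 rat with its own library preparation and sequencing, so rat and run cannot be told apart. Sox9 rose by 3.45 in batch 1 and by 1.83 in batch 2 with 4000 µM ranitidine, a difference of -1.62 (adjusted p = 0.0097). Krt8 and Krt18 fell further in batch 2 with 10000 µM valproic acid, with differences of -0.84 (adjusted p = 0.00446) and -0.65 (adjusted p = 0.0338), and Krt8 fell further in batch 1 with 10000 µM acetaminophen, at -3.93 against -3.24 (adjusted p of the difference 0.0299). The other 3, Krt8 with 4000 µM ranitidine, Krt18 with 18 µM chloramphenicol and Afp with 100 µM sulfasalazine, had opposite signs in the batches. Without the second replicate of each group 1 of the 7 differences was called, and without the third 2 were.

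**Figure D5:**
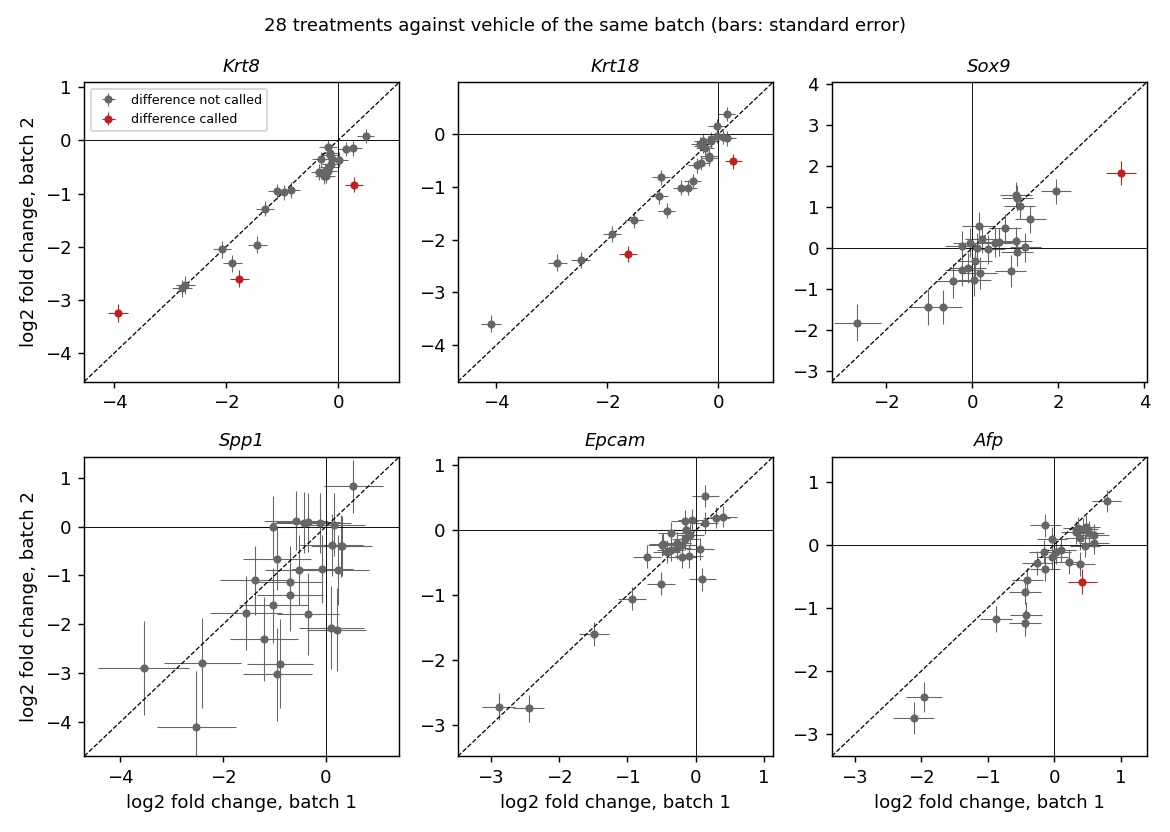
Log2 fold change against vehicle in batch 1 (horizontal) and batch 2 (vertical) of each tested gene, with 1 point per treatment, bars of 1 standard error, the line of equal values dashed and differences with an adjusted p under 0.05 in red. Of the 7 red points 5 are of the keratins, Spp1 scatters with wide bars and has none, and the red point of Sox9 is 4000 µM ranitidine at 3.45 and 1.83.

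Other genes of the same groups were taken from lists of known markers. Of the 22 other biliary genes 11 were tested, and over the 28 treatments they were lower in 123 and higher in 21 of 308 combinations, or 39.9% and 6.82%, beside 15.0% and 15.2% of all genes, with a median of -0.21. At the high concentrations 61.0% were lower, beside 25.5%. Itgb4, an integrin subunit, was lower in 19 treatments and higher in 1, and with 2000 µM naproxen it read 0.438 to 2.41 CPM against 16.4 to 37.8 in vehicle. Cdh1, E-cadherin, was lower in 16, and with 10000 µM acetaminophen read 4.05 to 6.87 CPM against 110.2 to 217.8. Bicc1, an RNA-binding protein, was lower in 16 and higher in 1.

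Of 14 other fetal liver genes 6 were tested, and these were higher in 39 and lower in 17 of 168 combinations, or 23.2% and 10.1%, beside 15.2% and 15.0% of all genes, with a median of 0.07. Plagl1, Mest and Hk2 of this list read at most 1.91 CPM in any vehicle well, which leaves little room for a lower call, so the split is not read as a direction of the list. Plagl1, an imprinted zinc finger factor that passed the filter through treated wells, with 10000 µM valproic acid read 63.0 to 112.1 CPM in batch 1 and 75.9 to 100.7 in batch 2, against at most 1.33 in the vehicle wells. Peg3, another imprinted gene, was higher in 7 and lower in 2, with 40.4 to 93.8 CPM at 10000 µM acetaminophen against 2.66 to 7.27 in vehicle. Igf2bp3, a fetal RNA-binding protein, was lower in 10 and higher in 3. Afp had its lowest log2 fold change in the acetaminophen treatment in which Peg3 had its highest.

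Of the 43 other keratins 2 were tested. Krt23 had at most 1 read in each of the 9 vehicle wells and 95 to 159 reads, or 16.0 to 25.5 CPM, in the 6 wells with 8 µM WY14643. It passed the filter through the wells where it was high, so its 8 higher calls are not read as a direction. Krt20 read 5.69 to 9.03 CPM in vehicle and 0 to 0.393 with 10000 µM caffeine, and was lower in 14 treatments and higher in 1. The 2 genes together were higher in 16.1% and lower in 25.0% of 56 combinations, beside 15.2% and 15.0% of all genes. Genes that bind keratins or form other filaments were lower in 64 and higher in 28 of 224, or 28.6% and 12.5%, beside the same shares of all genes. Their members differed, with Vim, vimentin, lower in 13 treatments and higher in none, Dsp, desmoplakin, lower in 11 and higher in 3, and Hspb1, a small heat shock protein, higher in 8 and lower in 4.

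Over 25 tested mature hepatocyte genes, 153 of 700 combinations were higher and 158 lower, or 21.9% and 22.6%, beside 15.2% and 15.0% of all genes. At the high concentrations 28.3% were higher and 42.9% lower, beside 25.4% and 25.5%, and at the low ones 15.4% and 2.29%, beside 4.9% and 4.5%. Genes of the Notch and YAP pathways, which drive biliary fate, were lower in 90 and higher in 16 of 280, or 32.1% and 5.71%, beside 15.0% and 15.2% of all genes. The YAP target Ankrd1 was lower in 15 treatments and higher in none, and with 10000 µM caffeine it read 0 to 0.635 CPM against 12.3 to 27.1 in vehicle. Beside the same shares of all genes, stellate cell markers were lower in 33.9% and higher in 5.36% of 56 combinations and macrophage markers in 23.6% and 13.6% of 140. The 1 endothelial marker tested, Eng, was lower in 10.7% and higher in 7.14% of 28, below the shares of all genes.

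The patterns of the 6 genes over the 30 conditions (28 treatments, medium and vehicle) were compared as Pearson's r of mean log2(CPM + 1), in each batch, a description in which all genes share the wells and their depth. By the lower r of the 2 batches, Krt8 and Krt18 were nearest to each other among all 10191 genes tested, at 0.968 in batch 1 and 0.965 in batch 2. Next came Loxl4, a lysyl oxidase-like enzyme, for Krt8 at 0.927 and 0.937, and Lsr, a lipoprotein receptor of cell junctions, for Krt18 at 0.969 and 0.943. Afp was most like Mccc2, an enzyme of leucine breakdown, at 0.895 and 0.915, and RGD1560795 at 0.884 and 0.913, and Epcam most like Ppl, periplakin, at 0.773 and 0.757, and Tspan2 at 0.718 and 0.742. For Sox9 the nearest were Klhl32 (0.642 and 0.681) and Efhd2 (0.640 and 0.656), and for Spp1 LOC498276 (0.660 and 0.584) and Rgl1 (0.579 and 0.640). Krt8 and Afp gave 0.694 and 0.783, whereas Krt8 and Sox9 gave 0.151 and -0.186.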

How the data were processed

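Lysates of 90 wells of batch 1 and 96 of batch 2 were read with WT and ST TempO-Seq probes. The authors deposited raw read counts per probe, aligned with STAR 2.5.3a according to the submitters' processing notes, which name build rn6, and the values are whole numbers with no normalization. Here reads of the probes of a gene were added, and CPM were taken from the library total. Genes averaging 10 or more counts over all wells entered edgeR 4.0.16 (R 4.3.3): TMM scaling and the quasi-likelihood F-test, with treatment and batch as terms over all wells and Benjamini-Hochberg adjustment over 10191 genes per comparison (threshold 0.05). Of the 2604 ST genes, 1760 were tested. Differences between batches came from a fit with 1 group per batch and treatment. A batch number marks 1 rat, so batch was kept as the block in each comparison, and well numbers pair nothing. Alternatives were DESeq2 1.42.0, RLE and total scaling, no filter, no block, wells added per rat, single batches, single probes and leaving out replicates. Standard errors were derived from the F-test and include the spread between wells. The limits given for a count of 0 cover counting error only. The fit was tested on simulated data.

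The genes of the set and the further lists were chosen with earlier results of these data known. All 9 genes were named, along with up to 3 genes of each further list (those called with the same sign in both batches in the most treatments), the 2 genes of most similar pattern (the lower r of the 2 batches), and for each gene up to 4 treatments in each direction with the largest log2 fold changes. Other treatments called are given by value only. Some genes that these rules would name are not reported here.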

Additional observations from a re-analysis of the deposited data

Results flagged for a closer look

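In 12 groups of 6 vehicle or medium wells of batch 2, 1 well stood apart from the others of its group. It was the sixth medium well, on plate 3, where Spp1 read 5.12 CPM against 2.496 to 3.41 in the other 5. About 1 in 20 groups is picked out in this way by chance.

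In 3 combinations the 2 batches gave opposite signs, with a called difference. Krt8 with 4000 µM ranitidine had a log2 fold change of 0.29 in batch 1 and -0.83 in batch 2, a difference of -1.12 (adjusted p = 4.9e-05). Krt18 with 18 µM chloramphenicol had 0.27 and -0.51, a difference of -0.79 (adjusted p = 0.0333), and Afp with 100 µM sulfasalazine had 0.42 and -0.59, a difference of -1.01 (adjusted p = 0.0411).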

How the results depend on the processing

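Of the 9 higher and 58 lower combinations, 5 and 35 also had an absolute log2 fold change of at least 1, and batch 1 alone gave 34 lower. Between high and low concentrations, the 7 higher became 3 and the 36 lower 23 with that minimum, and 4 were higher with no replicate block, with wells added per rat and without the third replicate. Leaving out 1 replicate or vehicle well gave 7 to 9 higher and 49 to 58 lower against vehicle, 4 to 7 higher and 33 to 34 lower between concentrations, and 1 to 6 differences between batches. In medium, batch 2 alone gave 1 lower, as did ST in place of WT, and the 1 higher ST call was 0 with WT counts. With no replicate block for batch, 55 combinations were called, 54 of them among the 67. Adding the wells of each rat, so that rats and not wells were the replicates, left 48, all among the 67, and DESeq2 called all 67. Every one of the 67 kept its direction in each of 7 alternative fits. The 30 named values gave 630 alternative values, of which 36 lost the call and 0 reversed. With 2 rats, variation between animals is hardly measured, and at the counts of Spp1 and Krt19 small changes were not detectable.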
